A study of Drosophila melanogaster with 3 samples.

Results

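The mitochondrial ribosomal protein genes of Drosophila melanogaster were examined for binding of the CG15011 protein at their promoters. The 73 genes are the protein-coding genes whose symbol is mRpL or mRpS, a number and at most 1 further letter, in Ensembl release 115, out of 13945 protein-coding genes on the 6 chromosome arms used, and 47 encode large-subunit and 26 small-subunit proteins. The rule uses the gene symbol and no binding value. Binding was mapped by chromatin immunoprecipitation and sequencing (ChIP-seq) in whole embryos of both sexes aged 0 to 24 hours, from a fly line that stably carries CG15011 joined at its C-terminal end to green fluorescent protein (GFP). The 3 biological replicates form 1 group with the same genotype and no treatment, and a text field of each sample names it an input control, although its peak list is recorded as made from its own alignment set against a separate control. A list of 30000 peaks exists for every replicate and another for the pooled replicates, and the optimal set equals the strongest 10.8% of the pooled list. The labels name CG15011 as the antibody's target. The tag reports where the fusion protein lies and not whether it acts there, and the mixed ages and tissues of whole embryos are averaged in every value. The lists give no read counts, so the depth is unknown.

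Mitochondria keep their own ribosomes, which make the few respiratory chain proteins encoded by mitochondrial DNA. Their RNA comes from the mitochondrial genome, but all their proteins are encoded in the nucleus, made in the cytosol and imported, so the 2 subunits depend on many scattered nuclear genes. Some of these proteins have bacterial relatives and others exist only in mitochondrial ribosomes. Many housekeeping genes in the compact fly genome lie head to head, with the start sites of a pair of genes on opposite strands and a short stretch between them. The annotation names CG15011 by its number alone, and its molecular role is not given in the labels.

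A few stretches between such start sites are shown because a summit lay in each. They are printed 5′ to 3′ in the direction of the mRp gene, up to 100 bp on each side of the summit (the peak's highest point), cut where an annotated exon begins, from the RefSeq copy of genome Release 6 (dm6). The first pair come from the strongest peaks after that of mRpL41: mRpS10 (chr3R:15229434-15229634, plus strand, shared with Art3) and mRpS23 (chr2L:13835349-13835549, minus strand, shared with CenG1A). The next, at mRpL24 (chr2L:4945390-4945578, minus strand), fills most of the gap to betaggt-I, and mRpS7 (chr2L:10386352-10386552, plus strand) faces the cell-cycle kinase gene Cdk1. The last is mRpS2 (chr2L:4850457-4850640, minus strand), which had a peak in every replicate and none in the pooled list. Capitals mark matches to any of the 10 promoter motifs searched, which are spelled out further on.
mRpS10: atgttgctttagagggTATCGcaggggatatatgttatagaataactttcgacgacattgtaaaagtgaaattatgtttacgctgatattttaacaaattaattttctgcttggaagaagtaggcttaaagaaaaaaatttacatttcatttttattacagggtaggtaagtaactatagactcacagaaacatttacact
mRpS23: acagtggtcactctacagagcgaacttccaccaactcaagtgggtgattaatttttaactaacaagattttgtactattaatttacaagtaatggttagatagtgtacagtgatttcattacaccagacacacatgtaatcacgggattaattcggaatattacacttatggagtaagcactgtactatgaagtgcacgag
mRpL24: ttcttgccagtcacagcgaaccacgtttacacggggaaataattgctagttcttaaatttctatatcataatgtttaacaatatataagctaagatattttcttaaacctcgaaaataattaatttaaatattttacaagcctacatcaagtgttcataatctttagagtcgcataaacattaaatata
mRpS7: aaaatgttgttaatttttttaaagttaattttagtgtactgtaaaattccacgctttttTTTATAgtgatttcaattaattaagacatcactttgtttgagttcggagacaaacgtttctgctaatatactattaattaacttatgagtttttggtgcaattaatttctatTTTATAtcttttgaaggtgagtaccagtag
mRpS2: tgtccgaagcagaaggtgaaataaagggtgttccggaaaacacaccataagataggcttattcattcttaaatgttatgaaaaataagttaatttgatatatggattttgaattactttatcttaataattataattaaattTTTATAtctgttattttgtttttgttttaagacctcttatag
The stretches at mRpS23 and mRpL24 hold none of the 10 motifs. The stretch at mRpS10 holds 1 copy of the CGATA word of the insulator protein BEAF, that at mRpS7 has the TATA letters at 2 places, and that at mRpS2 at 1. A and T bases make up 70.1% of the stretch at mRpS10, 63.7% at mRpS23, 72.5% at mRpL24, 74.6% at mRpS7 and 75% at mRpS2.

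A gene was counted when at least 1 of its annotated transcription start sites had a summit no more than 500 bp away. Of the 73 genes, 9 (12.3%) had an optimal promoter summit, beside 10.8% of all protein-coding genes, so the count itself is close to the background. Their ranks were not: 4 of the 9 peaks stood among the 100 strongest optimal peaks, at ranks 7, 8, 21 and 82. Over all protein-coding genes, 0.595% had a summit among those 100 peaks, against 5.48% of the mitochondrial ribosomal protein genes. The median rank of the 9 was 313 and their median signal 630.7, beside 1209.5 and 295.8 for the 1500 protein-coding genes that had an optimal summit. Signal is the authors' value and ranks peaks only within a list. The limit of 100 was set after the ranks were known, and other limits gave 3 members of 18 protein-coding genes for the 25 strongest peaks, 4 of 165 for 200 and 5 of 657 for 1000. No test was made, since the 73 genes are not replicates and neighbouring genes are not independent.

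**Figure D1:**
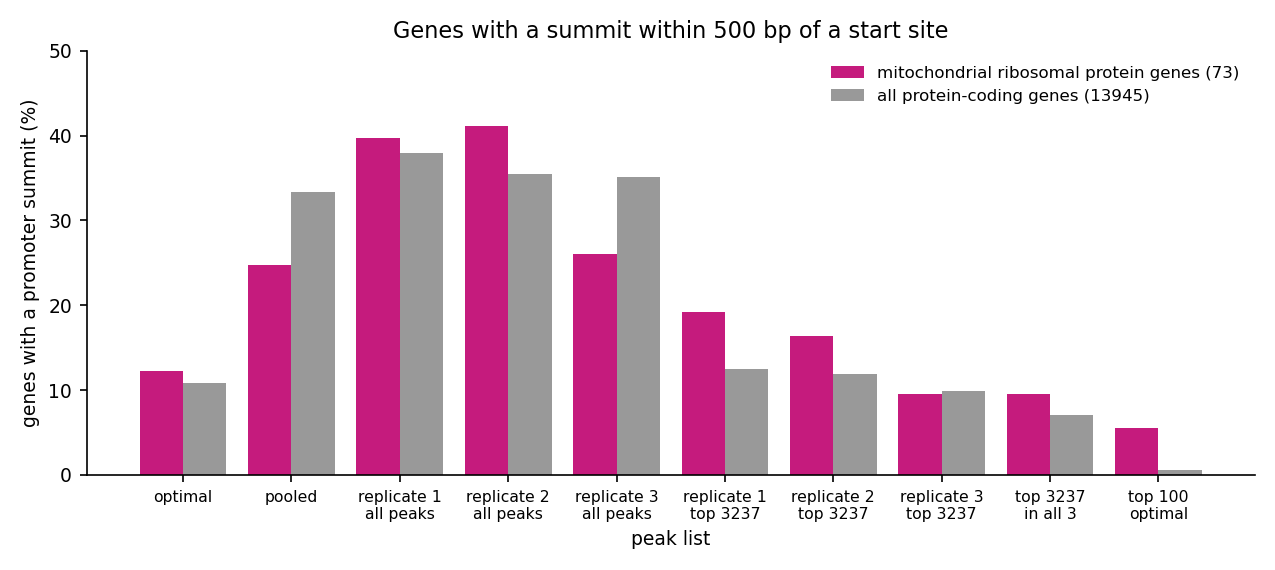
Share of genes (%) with a summit within 500 bp of a start site, for the 73 mitochondrial ribosomal protein genes and the 13945 protein-coding genes, by peak list; bars are single counts with no error. The paired bars are near each other for the optimal set (12.3% and 10.8%) and far apart for the 100 strongest optimal peaks (5.48% and 0.595%).

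In the pooled list, which reaches down to weak peaks, 18 of the 73 genes (24.7%) had a promoter summit, beside 33.3% of protein-coding genes. The replicates did not share 1 direction against the background. In replicate 1, 29 genes (39.7%) had a summit at any rank beside 38.0% of protein-coding genes, in replicate 2 there were 30 (41.1%) beside 35.5%, and in replicate 3 there were 19 (26.0%) beside 35.1%. Replicate 3 was thus below and replicates 1 and 2 above. Among the strongest peaks of each replicate, as many as the optimal set holds, 14 genes (19.2%, background 12.5%) had a summit in replicate 1, 12 (16.4%, background 11.9%) in replicate 2 and 7 (9.59%, background 9.92%) in replicate 3, a mean of 11 ± 3.61 genes (SD, n = 3). In all 3 replicates at once, 7 genes did (9.59%, background 7.01%). Of the 73, 32 (43.8%) had no promoter summit in any of the 5 lists, beside 45.2% of protein-coding genes.

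The 3 strongest peaks lay at mRpL41, mRpS10 and mRpS23. mRpL41 (FBgn0034001, chromosome 2R, 15217024 to 15217617, minus strand) encodes a large-subunit protein found only in mitochondrial ribosomes. Its peak (2R, 15217568 to 15217940) had a pooled signal of 2224.2 at rank 7, and signals of 713.8 at rank 6 in replicate 1, 1152.4 at rank 7 in replicate 2 and 373.7 at rank 35 in replicate 3. All 3 replicates placed it high, replicate 3 lowest.

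mRpS10 (FBgn0038307, 3R, 15229665 to 15230516, plus strand) encodes the mitochondrial relative of a bacterial small-subunit protein, and its peak spans 15229371 to 15229721. The pooled signal was 2119.2 at rank 8, with 621.7 at rank 9, 1068.8 at rank 8 and 434.4 at rank 20 in replicates 1, 2 and 3. mRpS23 (FBgn0260407, 2L, 13834250 to 13835072, minus strand) encodes a small-subunit protein of mitochondrial ribosomes. Its peak (2L, 13835297 to 13835618) had a pooled signal of 1740.8 at rank 21, and 478.3 at rank 19, 782.1 at rank 22 and 468.9 at rank 13 in replicates 1, 2 and 3. mRpS23 was the only gene of these 3 whose best replicate rank came from replicate 3.

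The next members were large-subunit genes. mRpL23 (FBgn0035335, 3L, 2372844 to 2373704, minus strand) encodes the relative of a bacterial protein at the exit of the nascent chain tunnel. Its peak (3L, 2373448 to 2373753) had a pooled signal of 1074.8 at rank 82, with 337.3 at rank 52, 511.9 at rank 83 and 213.4 at rank 193 in replicates 1, 2 and 3. mRpL24 (FBgn0031651, 2L, 4944256 to 4945361, minus strand), whose bacterial relative starts large-subunit assembly, had a peak (2L, 4945335 to 4945610) with a pooled signal of 630.7 at rank 313, and 222.1 at rank 174, 293.2 at rank 309 and 114.3 at rank 698 in the replicates. Both kept a place among the 1000 strongest peaks of every replicate. mRpL20 (FBgn0036335, 3L, 13017149 to 13017867, minus strand), relative of a bacterial assembly protein, had a peak (3L, 13018081 to 13018228) with a pooled signal of 334.5 at rank 1001, and 100.1 at rank 944, 169.8 at rank 852 and 65.6 at rank 1920 in the replicates.

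The 3 weakest optimal peaks were all at small-subunit genes, and replicate 3 ranked them far below the others or lacked them. At mRpS26 (FBgn0036774, 3L, 18106579 to 18107499, plus strand), which encodes a protein of mitochondrial ribosomes, the peak (3L, 18106108 to 18106551) had a pooled signal of 284.2 at rank 1302, with 96.4 at rank 997, 138.7 at rank 1223 and 45.1 at rank 3807 in replicates 1, 2 and 3. At mRpS7 (FBgn0032236, 2L, 10386662 to 10387652, plus strand), relative of a bacterial protein that binds the subunit's RNA, the peak (2L, 10386230 to 10386673) had a pooled signal of 224.6 at rank 1905, with 71.1 at rank 1656, 127.1 at rank 1395 and 32.1 at rank 7399. At mRpS24 (FBgn0039159, 3R, 24162829 to 24163545, minus strand) the peak (3R, 24163587 to 24164030) had a pooled signal of 175.0 at rank 2785, with 65.2 at rank 1898 and 83.3 at rank 2757 in replicates 1 and 2. Replicate 3 had no promoter summit at mRpS24. By subunit, 5 of 26 small-subunit genes (19.2%) and 4 of 47 large-subunit genes (8.51%) had an optimal promoter summit, beside 10.8% of protein-coding genes. Support was then asked of both other replicates, each among as many of its strongest peaks as the optimal set holds. Without replicate 1 or without replicate 2, the small-subunit count was 2 of 26 and the large-subunit count stayed 4 of 47. The small-subunit share was thus no longer the higher under this limit. Of the genes lost, mRpS26 and mRpS7 did have summits in replicate 3, at the lower ranks given above. The share over protein-coding genes is not given under this limit.

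**Figure D2:**
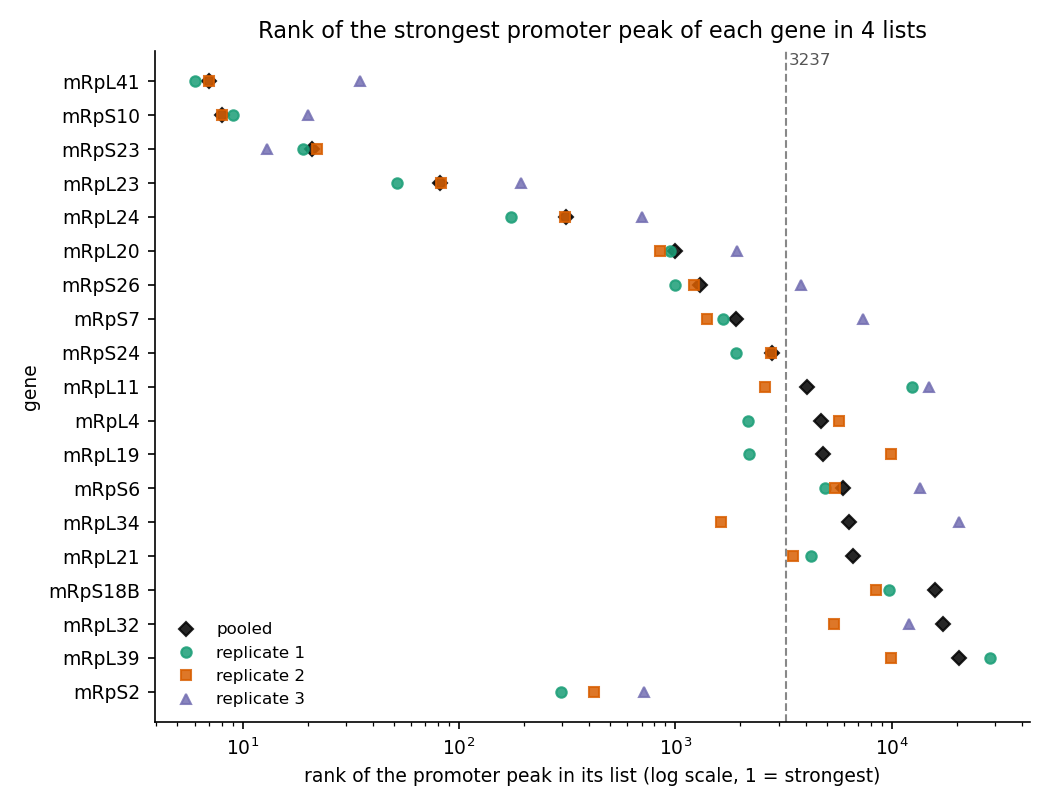
Rank of the strongest promoter peak of each gene (log axis, 1 = strongest) in the pooled list (black) and in replicates 1 to 3, for the 18 genes with a pooled promoter peak and for mRpS2; a missing symbol means no summit within 500 bp of a start site. The dashed line marks the size of the optimal set; the peaks at mRpL41, mRpS10 and mRpS23 stand at rank 35 or better in all 4 lists, and mRpS2 has no pooled symbol.

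All 9 optimal promoter summits also lay within 500 bp of the start site of another gene. Over all protein-coding genes, 5.43% had an optimal summit shared in this way, beside 12.3% of the 73. Among genes with an optimal promoter peak, the shared ones were 9 of 9 here and 757 of 1500 (50.5%) over all protein-coding genes. These genes are more often arranged head to head: 58 of 73 (79.5%) had an opposite-strand start site upstream within 1000 bp, beside 39.6% of protein-coding genes. All 9 with an optimal peak had such a neighbour, and among protein-coding genes with both an optimal peak and such a neighbour the summit was shared in 712 of 899 (79.2%). Within genes that have a divergent neighbour, 9 of 58 (15.5%) had an optimal summit, beside 16.3% of protein-coding genes. Of the 15 without one, none had an optimal summit and 1 had a pooled one, beside 7.14% and 31.1% of protein-coding genes. A summit in a shared promoter cannot be assigned to either gene from these lists.

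**Figure D3:**
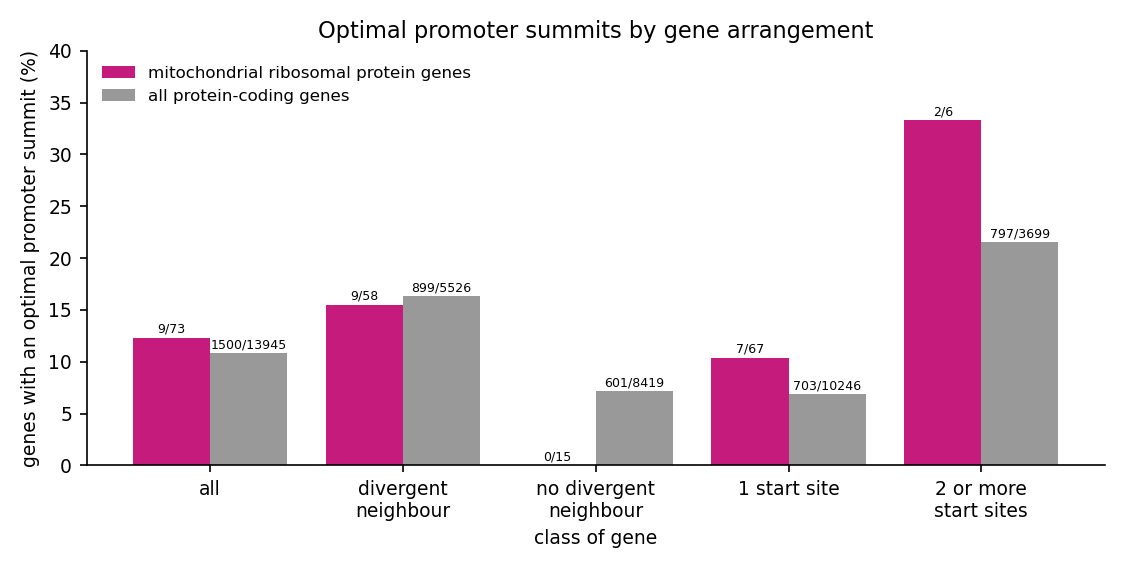
Share of genes (%) with an optimal promoter summit by gene arrangement and by number of annotated start sites, with the counts over each bar; bars have no error. The bars of the mitochondrial ribosomal protein genes and of all protein-coding genes are close for genes with a divergent neighbour (15.5% and 16.3%), and no such gene without one had a summit (0 of 15).

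The neighbours were of many kinds. The summit at mRpS10 was 131 bp upstream of its start and 126 bp upstream of that of Art3, a protein arginine methyltransferase gene, across a gap of 257 bp. That at mRpS23 was 377 bp upstream of mRpS23 but 115 bp upstream of CenG1A, which encodes an Arf GTPase-activating protein. At mRpL24 it was 129 bp from mRpL24 and 89 bp from betaggt-I, the beta subunit gene of geranylgeranyl transferase type I, which adds a lipid to proteins. At mRpL20 it was 277 bp from mRpL20 and 122 bp from Icmt, which methylates lipid-bearing protein ends. The Cdk1 and mRpS7 starts were 190 and 210 bp away from their summit, the Apc2 and mRpS24 starts 157 and 264 bp, and the CG13698 and mRpS26 starts 181 and 249 bp. Apc2 encodes a relative of the adenomatous polyposis coli protein.

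The remaining pair of peaks had other layouts. At mRpL23 the summit was 69 bp downstream of the nearest of its 3 annotated starts, inside an exon, and 119 bp upstream of the CG9004 start. At mRpL41 the only other start within 500 bp was that of lncRNA:CR44463, on the same strand and 433 bp away. With protein-coding neighbours alone the mRpL41 peak was thus its own. By that rule 8 of 9 were shared, beside 699 of 1500 (46.6%) protein-coding genes with an optimal peak. The start of CG8079, the divergent neighbour of mRpL41, lay 762 bp from the mRpL41 start.

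In 7 of the 8 divergent pairs the optimal summit lay between both starts. In the same 7 it was nearer to the neighbour, though at mRpS10 only by 126 bp against 131 bp. The median distances over the 8 were 124 bp to the neighbour and 229.5 bp to the mRp gene. Neither count is given over all protein-coding genes, so neither can be called particular to the mRp genes. The replicates' own summits varied. Replicate 1 was nearer the neighbour in 6 of 8 pairs, replicate 2 in 7 of 8 and replicate 3 in 3, with no summit at mRpS24. In 3 pairs (mRpS23, mRpL20 and mRpS26) each replicate was nearer the neighbour. At mRpS10 the replicate summits were 124 to 129 bp from mRpS10 and 128 to 133 bp from Art3, too close to order. Over all 9 genes, 8 summits were upstream, with a median position of -210 bp, beside 86.7% upstream and -168 bp over the 1500 protein-coding genes. Without replicate 1 or without replicate 2 the median over the 6 genes left was -138 bp, nearer the start than -168 bp, a value that was not recomputed in this way.

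**Figure D4:**
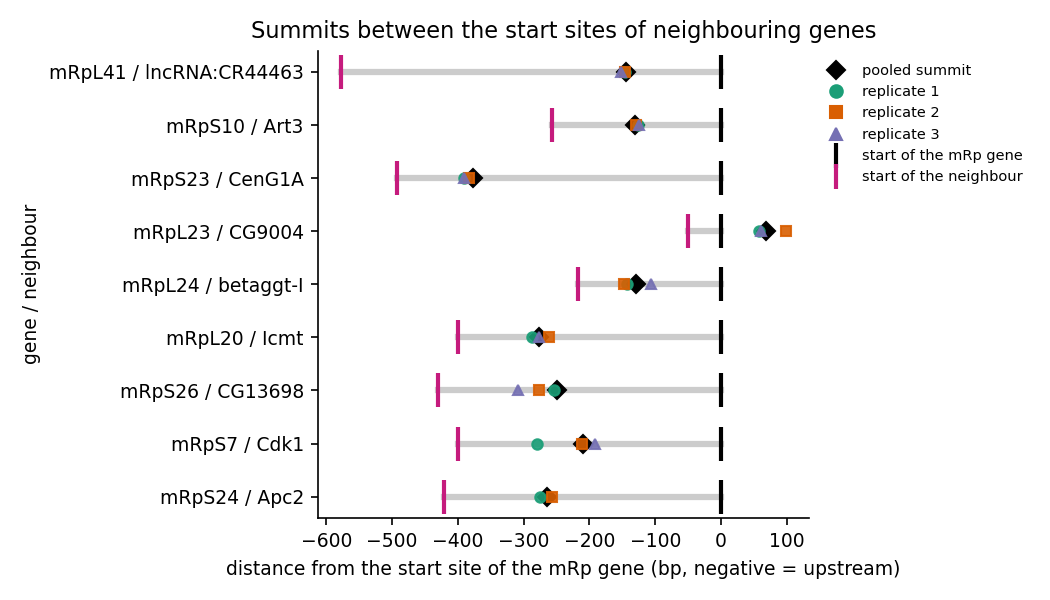
Position of the pooled summit (black diamond) and of each replicate's summit relative to the start site of the mRp gene (black bar, 0 bp; for mRpL23 the start nearest the summit), with the neighbour's start site (pink bar), for the 9 genes with an optimal promoter peak. Apart from mRpL23, each pooled summit lies between the bars. At mRpS23, mRpL20 and mRpS26 the summits of all 3 replicates are nearer the neighbour.

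The gap between the start sites varied widely among the 58 genes. Its median was 283 bp, beside 298 bp over all protein-coding genes with a divergent neighbour. Of 31 genes with a gap over 200 and up to 500 bp, 7 (22.6%) had an optimal summit, beside 20.9% of protein-coding genes with such a gap. Of 18 with a gap of 100 bp or less, 1 (5.56%) did, beside 11.7%. Most of these genes have a single start, 67 of 73 (91.8%) beside 73.5% of protein-coding genes, and so fewer places for a summit to count. Among genes with 1 start, 7 of 67 (10.4%) had an optimal summit, beside 6.86% of protein-coding genes.

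A further 9 genes had a pooled promoter summit below the optimal set. The nearest to it was mRpL11, at pooled rank 4038 with a signal of 135.2, and the nearest inside it was mRpS24, at rank 2785 with 175.0. mRpL11 encodes the relative of a bacterial stalk-base protein and shares its peak with HtrA2, a mitochondrial protease gene, and its summit ranked 12339, 2583 and 14882 in replicates 1, 2 and 3. mRpL4 (signal 121.9, rank 4716) and mRpL19 (120.7, rank 4791) were the only 2 of the 18 whose pooled summit lay near no other start, at -164 and -160 bp. The pooled summit was thus shared at 16 of 18 genes (88.9%), beside 1655 of 4643 protein-coding genes with a pooled promoter summit (35.6%). These groups differ in layout: 17 of the 18 had a divergent neighbour within 1000 bp, beside 2027 of the 4643. The shared part among genes with such a neighbour is not given for the pooled list. mRpL4 and mRpL19 ranked within the size of the optimal set in replicate 1 (2156 and 2199) and lower in replicate 2 (5709 and 9937). Both were missing in replicate 3. The other 6 were mRpS6, mRpL34, mRpL21, mRpS18B, mRpL32 and mRpL39, with signals from 53.9 to 105.4. They share their peaks with Cip4, Dg (dystroglycan), rept (a chromatin ATPase), Kua, qless (coenzyme Q synthesis) and Prosbeta2 (a proteasome subunit). mRpL34 ranked 1628 in replicate 2 and 20488 in replicate 3, and had no summit in replicate 1.

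mRpS2 stood apart from this order. It encodes the mitochondrial relative of a bacterial small-subunit protein and lies 222 bp from Mon1, a membrane trafficking gene on the opposite strand. Its promoter summit ranked 297 in replicate 1 (signal 179.1), 420 in replicate 2 (248.1) and 718 in replicate 3 (112.7), at -138, -138 and -168 bp from its start. The nearest pooled summit was 4507 bp away and the nearest optimal one 5913 bp. Of 978 protein-coding genes with such a strong summit in every replicate (within the size of the optimal set), 9 (0.920%) had no pooled promoter summit. The reason was not tested.

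Including mRpS2, 55 genes lacked a pooled promoter summit. No list held a promoter summit at 32 of the 55, beside 6304 of the 9302 protein-coding genes without a pooled one. The other 23 had a summit in a replicate, 16 of them in 1 replicate, 5 in 2 and 2 in all 3. The second of the last 2 was mRpL33, at ranks 12762, 8212 and 16040. This split by number of replicates is not given over all protein-coding genes. Apart from mRpS2, the genes of these 23 that ranked within the size of the optimal set in a replicate were mRpS22 and mRpL37. In replicate 1 they ranked 1257 and 2688, and each had no summit in the other replicates. The median distance from the start sites of these 55 genes to the nearest pooled summit was 7444 bp, beside 3647.5 bp for protein-coding genes without a pooled promoter summit. To the nearest optimal summit the medians stood the other way, 12807 and 17412 bp. The X chromosome carries 11 of the 73 genes, and none of them had a pooled promoter summit, where 28.8% of the protein-coding genes of X did. Replicate lists did hold promoter summits at some of the 11, among them mRpL33. On 2L, 2R, 3L and 3R the pooled counts were 5 of 12, 2 of 12, 6 of 17 and 5 of 21. The protein-coding shares there were 33.4%, 32.2%, 38.0% and 32.7%.

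Among the strongest peaks of each replicate, the same top genes recurred. mRpL41, mRpS10, mRpS23 and mRpL23 had a summit among the 100 strongest peaks of replicates 1 and 2, and all but mRpL23 did in replicate 3. That is 5.48%, 5.48% and 4.11% of the 73 genes, beside 0.581%, 0.617% and 0.574% of protein-coding genes. The replicates were set against the same control alignment and the pooled list holds the reads of all 3, so these lists are not independent of one another.

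Several promoter motifs differed in share between the 73 genes and all genes, some by little, given here as counts with no test. Each promoter was read from 250 bp before to 50 bp after the most upstream start, and a motif counted on either strand. The E-box form CAGCTG, a known fly core promoter word, was in 40 of 73 promoters (54.8%), beside 17.7% of all protein-coding promoters. The DNA replication-related element TATCGATA was in 20.5% beside 9.36%, the BEAF word CGATA that it contains in 58.9% beside 47.4%, and the core of motif 1, GGTCACACT, in 8 of 73 beside 6.05%. The GAGA factor word GAGAG was less frequent, 16.4% beside 29.7%, as was the initiator word TCAGT, 38.4% beside 51.5%. For the E-box CACGTG the shares were 6.85% and 4.20%, and for TATAAA 46.6% and 45.8%. The NRF-1 core GCGCATGC was in 1 promoter (1.37% beside 1.05%) and the ETS word CCGGAAG in none (beside 1.09%). Among genes with a divergent neighbour, CAGCTG was in 53.4% of the mRp promoters, beside 21.4% over protein-coding genes. For the other motifs the shares among such genes are not given.

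**Figure D5:**
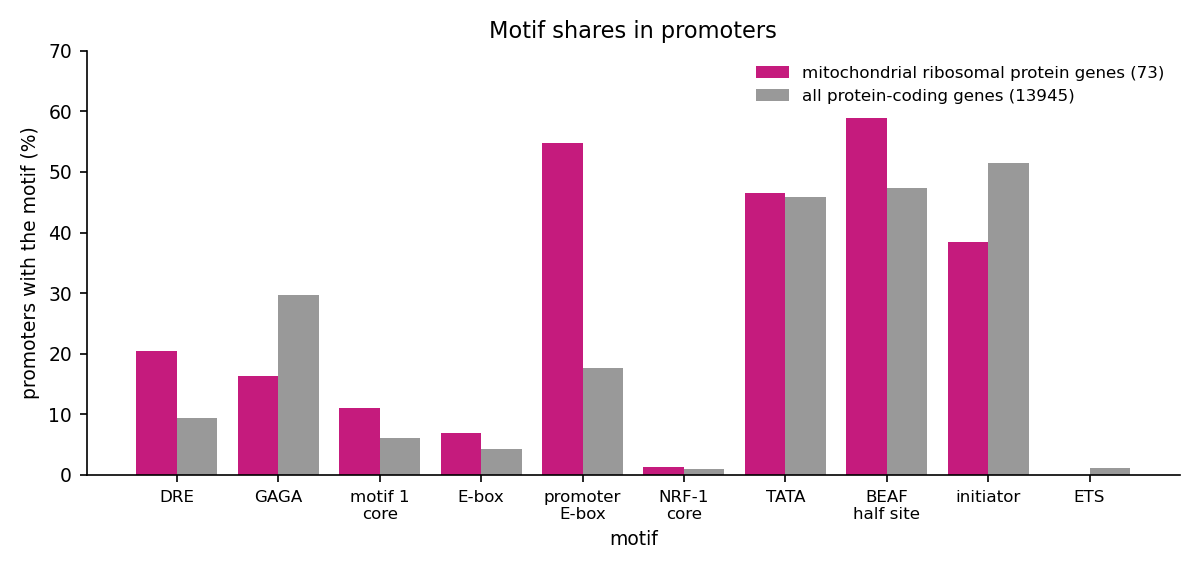
Share of promoters (%) with each of the 10 motifs on either strand, for the 73 mitochondrial ribosomal protein genes and all 13945 protein-coding genes; bars are single counts with no error. The promoter E-box, with the letters CAGCTG, shows the widest gap (54.8% and 17.7%), and GAGA is lower in the mRp genes (16.4% and 29.7%).

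The word CAGCTG was in 4 of the 9 promoters with an optimal peak (44.4%) and in 36 of the 64 without (56.2%). Over all protein-coding genes the shares were 22.7% with an optimal peak and 17.1% without. Within 100 bp of the 9 summits it was absent, where 8.24% of all 1384 optimal promoter summits held it, and it was in 3 of the 9 windows at the members' other pooled summits, beside 9.70% of all such summits. In the same windows, TATCGATA was in 0 of 9 (4.05% of all optimal promoter summits), GGTCACACT in 0 of 9 (1.52%), GAGAG in 2 of 9 (22.3%), TATAAA in 3 of 9 (40.4%), CGATA in 1 of 9 (28.7%), TCAGT in 1 of 9 (32.8%) and CACGTG in 1 of 9 (2.17%). A match is only a description of the letters in a window. The windows were rich in A and T, with a median of 71.6% over the 9 (range 63.7 to 74.6), beside 66.2% over all optimal promoter summits (quartiles 60.7 and 70.1). At the members' other pooled summits the median was 62.7%, beside 60.7% over all other pooled promoter summits. Over the promoters read for motifs, the median was 65.3% for the 73 genes, beside 62% for all protein-coding genes. The base content was looked at after the windows had been read.

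Of 44 other genes of mitochondrial gene expression in 4 lists, 3 had an optimal promoter summit (6.82%, beside 10.8% of protein-coding genes) and 6 a pooled one (beside 33.3%). None of the 15 mitochondrial aminoacyl-tRNA synthetase genes, which charge the transfer RNAs, had a pooled summit. Neither did tko or bonsai, which encode small-subunit proteins of the same ribosome under other names. Of 12 translation factor genes, the initiation factor gene mIF2 (signal 77.1) and the elongation factor gene mEFG1 (57.7) had a pooled summit and none had an optimal one. Of 15 genes for transcription, RNA and genome maintenance, 3 had an optimal summit (20%). PNPase, an RNA-degrading enzyme gene, had a signal of 1864.3 at rank 14, with ranks 15, 13 and 17 in the replicates. Lon, a mitochondrial protease gene, had 1199.7 at rank 50, shared with PIG-F, and mtSSB, the single-stranded DNA-binding protein gene, had 223.1 at rank 1933 with no summit in replicate 3.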

How the data were processed

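The lists were deposited by the authors as peak files on the dm6 assembly. Per the deposited notes, each replicate's list was made from that replicate's alignment and a control alignment, the pooled list from the 3 replicate alignments and the same control, and the optimal set by filtering on the irreproducible discovery rate. The control was not analysed here, and neither the aligner nor the peak caller is named in the labels or notes. The deposited signal per peak ranks it within its list, and the deposited −log10 q-value ordered only ties. Scaling between lists is not given, so signals were not compared between lists. Depth is unknown, and no interval is given.

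Summits were placed at start sites of genes in Ensembl release 115, transposable elements left out (18164 genes), with Python 3.11.15 and NumPy 2.4.6. In the optimal set, 2 summits outside their peak were replaced by the midpoint. The code was tested on planted summits, of which 200 of 200 were placed as made. Sequence came from RefSeq, whose arm lengths hold all peak coordinates.

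There is 1 group and no test. Members are set beside all protein-coding genes. The members, lists and motifs were chosen with earlier results of these data known. Of the symbols in the 4 lists, 12 matched no gene. The rule for named genes took every member with an optimal promoter summit and each gene sharing it, the 10 strongest other pooled members, members within the size of the optimal set in a replicate, members just inside and outside the optimal set, and genes of the other lists with an optimal summit. mRpL33, mIF2, mEFG1, tko and bonsai, and the neighbour of mRpS2, were named after their values were seen. Alternatives are given in the closing section.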

Additional observations from a re-analysis of the deposited data

How the results depend on the processing

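No paired analysis was possible because the 3 replicates form 1 group and no test was made. The count of genes with an optimal promoter summit, 9, was 6 with a 250 bp window (losing mRpL20, mRpS23 and mRpS24) and 10 with 1000 bp (gaining mRpL2). It was 7 in the stronger 50% of the optimal set (losing mRpS7 and mRpS24). It was 6, 6 and 9 without replicate 1, 2 or 3, with support asked of both other replicates. Support meant a summit among as many of a replicate's strongest peaks as the optimal set holds. Leaving out replicate 1 or replicate 2 lost mRpS24, mRpS26 and mRpS7, of which mRpS26 and mRpS7 had a lower-ranked summit in replicate 3. The small-subunit count moved from 5 to 3 with a 250 bp window and to 3 in the stronger 50%, and ranged from 2 to 5 with 1 replicate left out. Shared summits went from 9 of 9 genes to 5 of the 6 genes left with a 250 bp window. The count in every replicate rose from 7 to 12 with all 30000 peaks, by its construction. The median summit position, -210 bp, was -138 bp with a 250 bp window, -229.5 bp with 1000 bp, -145 bp in the stronger 50%, and -210 to -138 bp with 1 replicate left out. Using only the most upstream start, or midpoints for summits, left the optimal and pooled counts at 9 and 18 and the median position at -210 bp. None of these alternatives is given over all protein-coding genes, so whether the counts stayed near the background cannot be told. Read depth is unknown, so what depth limits could not be given.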
